A study of Brassica rapa with 6 samples.

Results

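The miR319 family was described in 2 tissues of Chinese cabbage (Brassica rapa), the leaf and the petiole, the fleshy stalk that carries the leaf blade. Members were all sequences in the deposited table with a miR319 name in any plant species, each distinct sequence counted once, which gave 15 of 1011 sequences. Small RNA of wild-type, greenhouse-grown plants was sequenced in 3 leaf and 3 petiole libraries, and neither age nor treatment is stated in the labels. The family was picked for description because its level was known to differ between these tissues. Leaf and petiole values of its members are therefore given without a test, though the shares given for all sequences or families include them. The library totals were 772667 to 803819 normalized counts in leaf and 428796 to 448448 in petiole, which stood for 729593 to 771262 and 457195 to 474192 reads. Because the leaf totals are larger, the main comparisons are given on the deposited scale and again with each library scaled to the same sum, here called equal totals. No small RNA that defines leaf blade or petiole cells was available to check the tissue labels. In whole tissue, fewer cells that make a small RNA and less of it per cell cannot be told apart.

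miR319 is an old plant miRNA family whose known targets in Arabidopsis are class II TCP transcription factors, among them TCP2, TCP3, TCP4, TCP10 and TCP24. These factors slow cell division and promote maturation in the growing leaf, so that excess miR319 gives crinkled, serrated leaves in Arabidopsis (the jaw-D mutant). The mature strand is cut from the 3' side of a long hairpin, and in Arabidopsis the precursor is processed from the loop towards the base, in several cuts. miR319 shares most of its bases with miR159, a separate family that targets GAMYB-type transcription factors. In the growing leaf, TCP factors also act on further miRNAs, including miR164 and miR396 in Arabidopsis.

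The sequences that carry the comparison are printed below as listed in the deposited table, from 5' to 3' and in DNA letters, with the seed (bases 2 to 8) in capitals. The first pair are the main 3p forms, which differ by 1 extra base at the 5' end and near their 3' end. The others of the first block are 3p variants with another first base, last base or internal base. Then follow forms of the 5p side and the entry named for the precursor of ath-miR319c.
ath-miR319c_L+1R-1: tTTGGACTgaagggagctcct
bra-miR319-3p: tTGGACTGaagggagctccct
gma-miR319c_L+1R+1: cTTGGACTgaagggagctcctt
mtr-miR319a-3p_R+1: tTGGACTGaagggagctccca
ath-miR319a_R+1_1ss15GA: tTGGACTGaagggaactccctt
aly-miR319b-5p_L+1R-1_1ss13CT: gAGAGCTTtctttggtccact
bra-miR319-5p: aGAGCTTCcttgagtccattc
sly-MIR319b-p3_2ss1AG19CT: gGAGCTTCctttagtccattc
ath-MIR319c-p5: aTCTGCCGactcatccatcca

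The names follow the matched miRNA of a species (bra for Brassica rapa, ath for Arabidopsis thaliana, aly for Arabidopsis lyrata, gma for soybean, mtr for Medicago truncatula, sly for tomato). L and R are read as bases added or removed at the 5' and 3' ends of that match, and ss as substitutions. A name therefore tells which known miRNA a read resembles, not that it came from that species. By sequence, 10 of the 15 forms were 3p-like, sharing the core of the mature strand, 4 were 5p-like, and ath-MIR319c-p5 matched neither. The forms were 20 to 24 nt long, 9 of them 21 nt. Those of 21 nt made up 88.1% to 93.7% of the family's count in the leaf libraries and 97.5% to 97.8% in the petiole libraries.

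The 3p-like forms fell into 2 seed groups. The seed TGGACTG was held by 6 forms, all starting at the first base of bra-miR319-3p, and TTGGACT by 4 forms that start 1 base earlier. Counted from the 5' end of bra-miR319-3p, ath-miR319c_L+1R-1 carried C20T and ended 1 base sooner. The change C20T was also found in gma-miR319c_L+1R+1, cme-miR319c_R+3, mes-miR319g_R+3 and mtr-miR319a-3p_L+1R+1_1ss21CT, while ath-miR319a_L+1R-1 had the extra first base without it. The change T21A was carried by the 3 forms named for mtr-miR319a-3p. An internal change, G15A, was present in ath-miR319a_R+1_1ss15GA and mtr-miR319a-3p_R+1_1ss15GA. RefSeq lists 1 gene named MIR319 for the assembly CAAS_Brap_v3.01, and the locus behind each form was not traced here.

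As a whole, the family was scarce in leaf and abundant in petiole. Its summed normalized count was 304, 387 and 392 in the leaf libraries and 17554, 19708 and 19788 in the petiole libraries. All petiole values lay far above all leaf values, and the means were 361 ± 49.5 and 19016 ± 1268 (SD, n = 3 each), a ratio of 52.7. The sum stood for 293 to 371.5 reads in leaf and 18570 to 21883 in petiole, so leaf values carry more counting error. The family took 0.0383%, 0.0482% and 0.0507% of the leaf libraries and 4.06%, 4.39% and 4.61% of the petiole libraries. With equal totals the ratio was 95.3. Among families, miR319 ranked between 39 and 41 in the leaf libraries and between 6 and 8 in the petiole libraries.

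In all 15 forms every petiole library was above every leaf library, on the deposited scale and with equal totals. Across all 1011 sequences the share separated in that direction was 20.9% on the deposited scale and 41.6% with equal totals. Because the family was chosen on this contrast, nothing is read from the set against the whole. Being absent from all leaf libraries and present in all petiole libraries was seen in 9 forms, against 4.95% of all sequences. Averaged over the 6 libraries, 14 forms had at least 5 counts, 8 of which were listed at 0 in every leaf library and passed through petiole alone. The form below it was mtr-miR319a-3p_L+1R+1_1ss21CT, listed at 0 in leaf and at 5.20, 6.24 and 6.78 in petiole, and the form just above was mes-miR319g_R+3, at 8.51, 13.4 and 12.7 in petiole. In log2(count + 1) the difference between petiole and leaf ranged from 2.77 to 10.54 over the 15 forms, with a median of 4.25. In the 9 forms listed at 0 in leaf, the size of this difference depends on the added 1. The highest, in ath-MIR319c-p5, was 11.53 with 0.5 added and 8.22 with 5 added. The form at the median, sly-MIR319b-p3_2ss1AG19CT, stood at 5.21 and 2.20 with these values. The median over the 601 sequences with a mean of at least 5 was 0.18 on the deposited scale and 0.97 with equal totals.

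**Figure D1:**
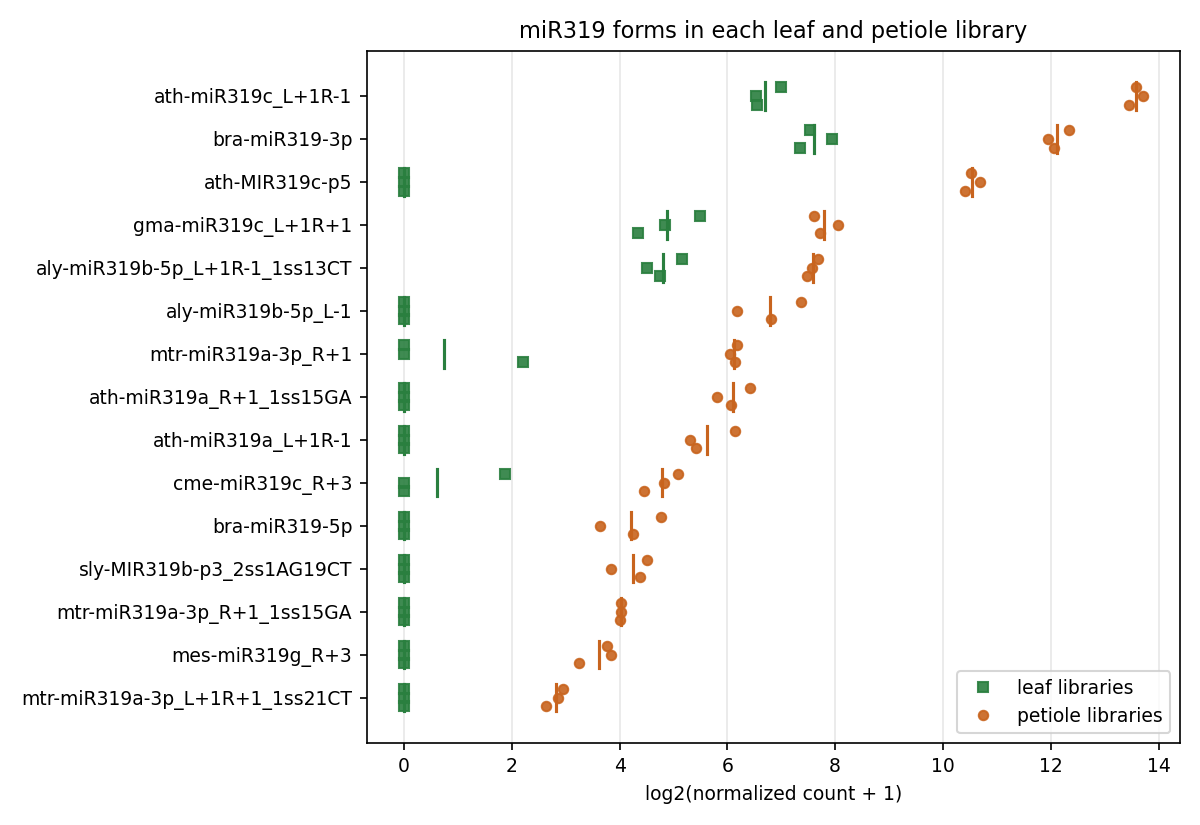
Each row is a miR319 form and each point a library, on the scale log2(normalized count + 1), with squares for leaf, circles for petiole and a vertical bar at the mean of each tissue. No leaf point reaches a petiole point in any of the 15 rows, and 9 rows have every leaf point at 0.

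The leading form in petiole was ath-miR319c_L+1R-1, a 3p strand of 21 nt. It had 92.3, 91.7 and 127 normalized counts in leaf and 11168, 13355 and 12268 in petiole. The tissue means of 104 ± 20.2 and 12264 ± 1094 (SD, n = 3) gave a ratio of 118, or 213 with equal totals. In reads, the leaf values stood for 89, 88 and 120. Among all sequences the form stood between rank 125 and 143 in leaf, and between 7 and 9 in petiole, where it alone took 2.58% to 2.98% of a library.

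The annotated Brassica form bra-miR319-3p, which starts 1 base later, was second in petiole and first in leaf. Its counts were 163, 246 and 183 in leaf and 4267, 3943 and 5148 in petiole. Its ratio of means was 22.6 on the deposited scale and 41.0 with equal totals. The rank was 100 to 117 in leaf and 17 to 24 in petiole.

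The order of these main forms was thus reversed between the tissues. The ratio of ath-miR319c_L+1R-1 to bra-miR319-3p, which does not depend on how a library is scaled, was 0.567, 0.373 and 0.694 in leaf and 2.62, 3.39 and 2.38 in petiole. In leaf the ratio was under 1 in every library and in petiole over 2 in every library. As shares of the family, ath-miR319c_L+1R-1 went from 28.8% ± 4.57 in leaf to 64.5% ± 2.98 in petiole, and bra-miR319-3p from 54.6% ± 8.43 to 23.4% ± 3.10 (SD, n = 3). Their joint share was close in both tissues, 83.5% ± 4.04 and 87.9% ± 0.121.

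**Figure D2:**
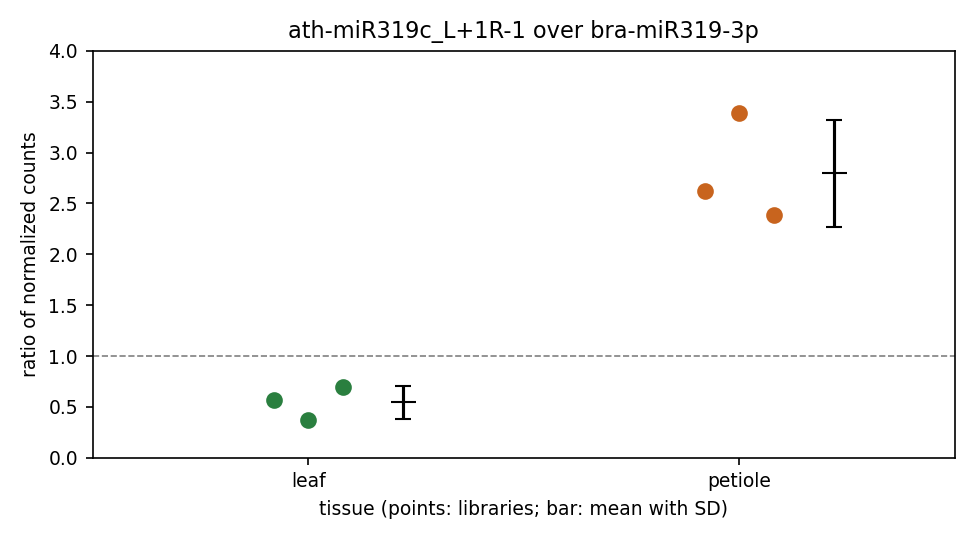
The vertical axis gives the normalized count of ath-miR319c_L+1R-1 divided by that of bra-miR319-3p. Points are libraries, the bars beside them the mean and SD of 3 libraries, and the dashed line marks equal counts, with leaf at 0.544 ± 0.162 below it and petiole at 2.80 ± 0.525 above it.

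Grouped by seed, the same pattern was seen in the sums. The 4 forms with the seed TTGGACT summed to 111.5, 119.3 and 171.03 in leaf and 11423, 13665 and 12538 in petiole. The 6 forms with the seed TGGACTG summed to 166.5, 246 and 186 in leaf and 4447, 4119 and 5366 in petiole. The first group was the smaller in each leaf library and the larger in each petiole library, though the leaf ratio of the first to the second spread from 0.485 to 0.920. These sums are dominated by the 2 main forms and are not independent of them.

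The entry ath-MIR319c-p5 is named for the 5' side of the precursor and came next after the main pair in petiole. Its leaf count was listed at 0 in every library, against 1356, 1638 and 1468 in petiole, 7.82% ± 0.456 of the family (SD, n = 3). In petiole it stood in a nearly fixed proportion to ath-miR319c_L+1R-1, at 12.15%, 12.27% and 11.96% of its count. At the mean of these proportions, the leaf level of ath-miR319c_L+1R-1 would correspond to 12.6 counts of ath-MIR319c-p5 against the 0 listed. The proportion is taken from petiole alone, and whether it holds in leaf was not tested. Without gaps, at most 10 of its bases could be placed opposite a matching base of ath-miR319c_L+1R-1, counting G-U pairs, and at most 11 opposite any 3p-like form. For the 5p-like forms the best such placement on a 3p-like form gave 16 to 18 pairs. The sequence was therefore not treated as the partner strand of the mature 3p.

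Few sequences were listed at very low values. Only 14 to 27 of the 678 to 792 listed sequences in a library stood for fewer than 3 reads. If the leaf level of each form were its petiole mean divided by the family ratio of 52.7, 8 of the 9 forms listed at 0 in leaf would fall under 3 reads there, and ath-MIR319c-p5 would stand at 27.0 reads. By its petiole proportion to ath-miR319c_L+1R-1, ath-MIR319c-p5 would stand at 12.6 normalized counts in leaf, against 28.2 by the family ratio. The family ratio itself includes the values of these forms. For the other 8, a lower leaf level than that ratio gives was thus hard to detect at this depth, although values under 3 reads are listed for some sequences.

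**Figure D3:**
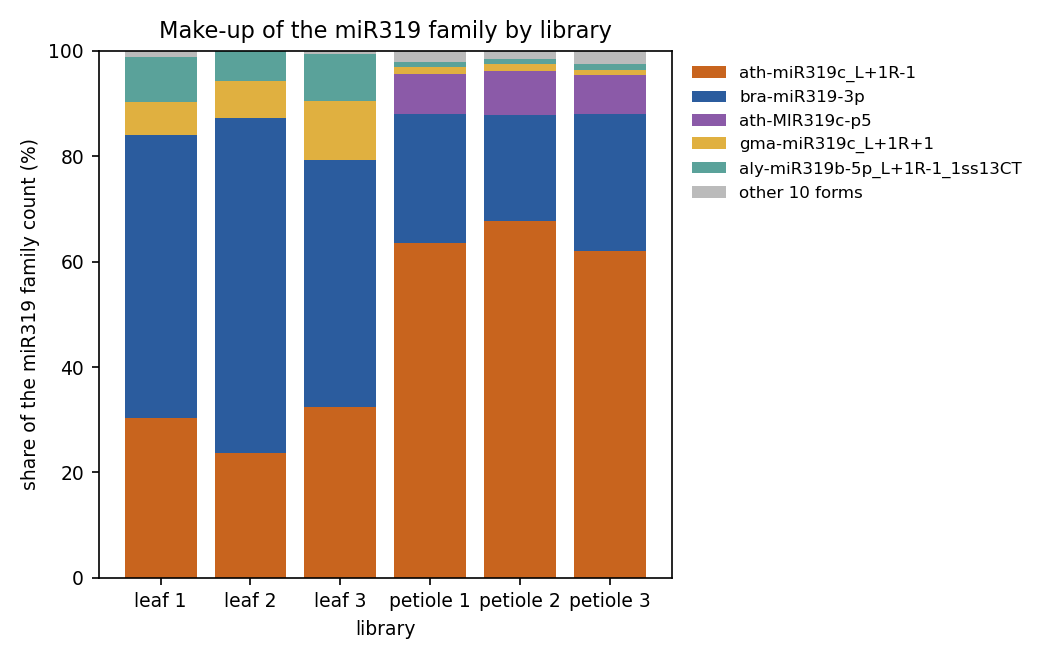
Stacked bars give the share of the miR319 family count (%) taken by each form in each library. The 2 main forms fill 79.2% to 87.2% of the leaf bars and 87.8% to 88.0% of the petiole bars, with ath-miR319c_L+1R-1 the larger part in petiole and bra-miR319-3p in leaf, and ath-MIR319c-p5 appears in the petiole bars only.

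The 4 forms listed above 0 in all 6 libraries were the main pair, gma-miR319c_L+1R+1 and aly-miR319b-5p_L+1R-1_1ss13CT. They stood at places 1, 3, 5 and 6 by ratio of means among the 451 sequences of that kind. As the family was chosen on this contrast, nothing is read from these places. The 22 nt form gma-miR319c_L+1R+1, which has a C as its first base, had 19.2, 27.6 and 44.0 counts in leaf and 208, 265 and 193 in petiole, a ratio of 7.35, or 13.2 with equal totals. Relative to ath-miR319c_L+1R-1, it stood at 20.8%, 30.1% and 34.6% in leaf and at 1.87%, 1.99% and 1.57% in petiole. The variant was thus a larger part in each leaf library than in any petiole library, though its leaf values rest on 18.5 to 41.5 reads.

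The 5p side was a minor part of the family in both tissues. Its most abundant form, aly-miR319b-5p_L+1R-1_1ss13CT, had 25.9, 21.9 and 34.9 counts in leaf and 178, 189 and 205 in petiole, a ratio of 6.91, or 12.5 with equal totals. The related aly-miR319b-5p_L-1, which starts 2 bases later, was listed at 0 in leaf and at 112, 71.0 and 164 in petiole. The annotated bra-miR319-5p was listed at 0 in leaf and at 17.96, 11.5 and 26.2 in petiole. The entry sly-MIR319b-p3_2ss1AG19CT carries a 3' side name but has a 5p-like sequence, differing from bra-miR319-5p by A1G and G12T (positions from the 5' end of bra-miR319-5p). It was listed at 0 in leaf and at 19.9, 13.4 and 21.7 in petiole. Summed, the 5p-like forms stood at 9.33%, 5.99% and 9.79% of the 3p-like forms in leaf and at 2.06%, 1.602% and 2.33% in petiole. The leaf shares lay above all petiole shares, but come from 1 form with 21 to 33 reads.

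The remaining 3p-like forms were rare. The form mtr-miR319a-3p_R+1 was listed at 3.63 in 1 leaf library and at 0 in the others, and had 69.5, 65.2 and 71.9 counts in petiole, 1.40% to 1.65% of bra-miR319-3p. The form ath-miR319a_R+1_1ss15GA, with the internal G15A change, was listed at 0 in leaf and had 66.2, 54.7 and 85.001 in petiole, 1.39% to 1.65% of bra-miR319-3p. The second G15A form, mtr-miR319a-3p_R+1_1ss15GA, stood at 15.1, 15.3 and 15.4 in petiole and was listed at 0 in leaf. The form ath-miR319a_L+1R-1 was listed at 0 in leaf and at 41.6, 38.4 and 69.6 in petiole. The 23 nt sequence cme-miR319c_R+3 is listed a second time under the miR159 name ath-miR159c_L-1R+3_1ss7TC, with the same values, and was counted here as miR319. It was listed at 2.65 in 1 leaf library, at 0 in the others, and at 20.8, 27.3 and 33.0 in petiole. Values of single forms are uncertain where reads were divided between similar sequences, and 4 of the 15 forms had values at whole reads plus 0.5.

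The spread among petiole libraries differed by form. The coefficient of variation was 8.92% for ath-miR319c_L+1R-1, 14.0% for bra-miR319-3p and 9.55% for ath-MIR319c-p5. In mtr-miR319a-3p_R+1_1ss15GA, which rests on 16 to 17 petiole reads, it was 0.896%, and in mtr-miR319a-3p_R+1, on 68 to 79.5, it was 4.89%. It reached 40.3% in aly-miR319b-5p_L-1, 39.7% in bra-miR319-5p and 34.5% in ath-miR319a_L+1R-1. These 3 forms rest on 74 to 181, 12 to 29 and 40 to 77 petiole reads, fewer than the main forms. Their values carry more counting error, but whether this accounts for their spread was not tested. In those 3 forms petiole replicate 3 was the highest and petiole replicate 2 the lowest, as also for bra-miR319-3p, while ath-miR319c_L+1R-1 had its highest value in replicate 2.

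miR159 served as the family nearest in sequence. Its main form, bra-miR159a, is printed with aqc-miR159, a sequence that lies between the families.
bra-miR159a: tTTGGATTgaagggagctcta
aqc-miR159: tTTGGACTgaagggagctcta
Counted from the 5' end of bra-miR159a, ath-miR319c_L+1R-1 differs from it by T7C, T20C and A21T. The sequence aqc-miR159 differs by T7C alone and so has the seed of the TTGGACT group. It had at most 3.63 counts in any library, and was listed at 0 in 1 library of each tissue.

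The miR159 share of a library was much closer between the tissues than that of miR319. The miR159 sum was 105640 ± 5820 in leaf and 61298 ± 1161 in petiole (SD, n = 3), 12.998% to 13.9% and 14.0% to 14.2% of the libraries. On the deposited scale it was lower in petiole, with a log2 difference of -0.78 ± 0.05 (SE) and an adjusted p of 8.9e-06 with limma. With equal totals the difference was 0.07 and did not pass (adjusted p = 0.0908). The miR319 sum stood at 0.291%, 0.346% and 0.390% of the miR159 sum in leaf and at 28.98%, 31.5% and 32.6% in petiole. Of the next most abundant miR159 entries, aly-MIR159a-p3_1ss12CT went from 3070 ± 125 to 1199 ± 85.6 and ath-miR159b-3p_R+1_1ss21TA from 515 ± 72.1 to 346 ± 33.1, with log2 differences of -1.36 and -0.57 (limma adjusted p = 9.7e-06 and 0.0105). With equal totals the first of these stayed lower at -0.50 (limma adjusted p = 0.00049) and the second was at 0.29. The main form bra-miR159a, at -0.77 on the deposited scale, was then at 0.083. The entry aly-MIR159a-p3_1ss12CT is named for the 3' side of the precursor and lacks the seed of bra-miR159a. Its fall is therefore not read as one of the mature strand, though its count is part of the miR159 sum.

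Set beside miR319, whose targets were not measured here, were other families of the leaf growth network. These were miR156 (SPL factors of phase change), miR159, miR160 (auxin response factors), miR164 (NAC factors of organ boundaries), miR166 (class III homeodomain-leucine zipper factors of polarity), miR167 (auxin response factors), miR172 (AP2-type factors), miR390 (the trigger of trans-acting siRNAs) and miR396 (growth-regulating factors). Of these 9, 1 was higher and 7 lower in petiole at an adjusted p under 0.05 with limma, with a median log2 difference of -0.75. Over all 80 families tested, 81.2% were called, 27.5% higher and 53.8% lower, with a median of -0.77. With equal totals 5 of the 9 were higher and 3 lower, with a median of 0.10, while 87.5% of all families were called, 48.8% higher and 38.8% lower, with a median of 0.08. After quantile normalization 3 of the 9 were higher and 3 lower, against 33.8% and 46.2% of all families. Of single sequences 49.6% were called, 21.3% higher and 28.3% lower, and with equal totals 71.2%, 53.4% higher and 17.8% lower.

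The family that rose was miR390, from 4911 ± 211 to 19521 ± 540 (SD, n = 3), a log2 difference of 1.99 ± 0.05 (SE; limma adjusted p = 9.8e-08), or 2.85 with equal totals. Its main form bra-miR390-5p went from 4385 ± 183 to 15178 ± 345. In petiole the miR390 sum was thus close to the miR319 sum, while in leaf it was far above it. The strongest fall was that of miR167, from 39247 ± 1752 to 444 ± 21.1, a log2 change of -6.46 (limma adjusted p = 1.1e-09), or -5.61 with equal totals, led by bra-MIR167d-p3 at 20141 ± 1476 and 235 ± 13.5. That entry is named for the 3' side of the precursor, so the sum does not stand for a single mature strand. The leaf and petiole levels of miR167 and miR319 were therefore in opposite order.

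All other listed families differed less than miR167 and miR390, among them miR164 and miR396, which TCP factors act on in Arabidopsis. The miR164 sum fell from 17400.5 ± 957 to 8303 ± 343, a log2 change of -1.07 (limma adjusted p = 4.0e-06), and its main form bra-miR164a went from 14608 ± 804 to 7490 ± 329. With equal totals the miR164 sum was still lower (-0.21, adjusted p = 0.0124), but bra-miR164a stood at -0.11 and did not pass, and after quantile normalization it was at 0.0061. The miR396 sum fell from 22165 ± 208 to 17036 ± 1259, a log2 change of -0.38 (limma adjusted p = 0.0012), but with equal totals it was higher (0.47). Its main form ath-miR396a-5p did not pass, with 7060 ± 819 and 6478 ± 1035. The miR156 sum, led by bna-miR156b at 4100 ± 340 and 1426 ± 60.4, had a log2 change of -1.37 that stayed negative and called with equal totals (-0.52). The sums of miR160 and miR166 fell by 0.75 and 0.64 on the log2 scale, and with equal totals they were called higher, at 0.10 and 0.21. That of miR172 did not pass on the deposited scale (-0.12, adjusted p = 0.3445) and was higher with equal totals (0.73). The main forms of these 3, bra-miR160a-5p, ath-miR166a-3p and bra-miR172a, had log2 changes of -0.78, -1.17 and -0.53 on the deposited scale (limma adjusted p = 2.5e-05, 2.5e-05 and 0.0125). With equal totals bra-miR160a-5p and bra-miR172a turned to 0.079 and 0.33, and ath-miR166a-3p stayed lower at -0.31. After quantile normalization ath-miR166a-3p was also at -0.31 and did not pass (limma adjusted p = 0.143). Without leaf replicate 3, bra-miR172a stood at -0.50 on the deposited scale and did not pass. In all, 4 of the 9 families, miR156, miR164, miR167 and miR390, had the same call on the deposited scale, with equal totals and after quantile normalization.

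**Figure D4:**
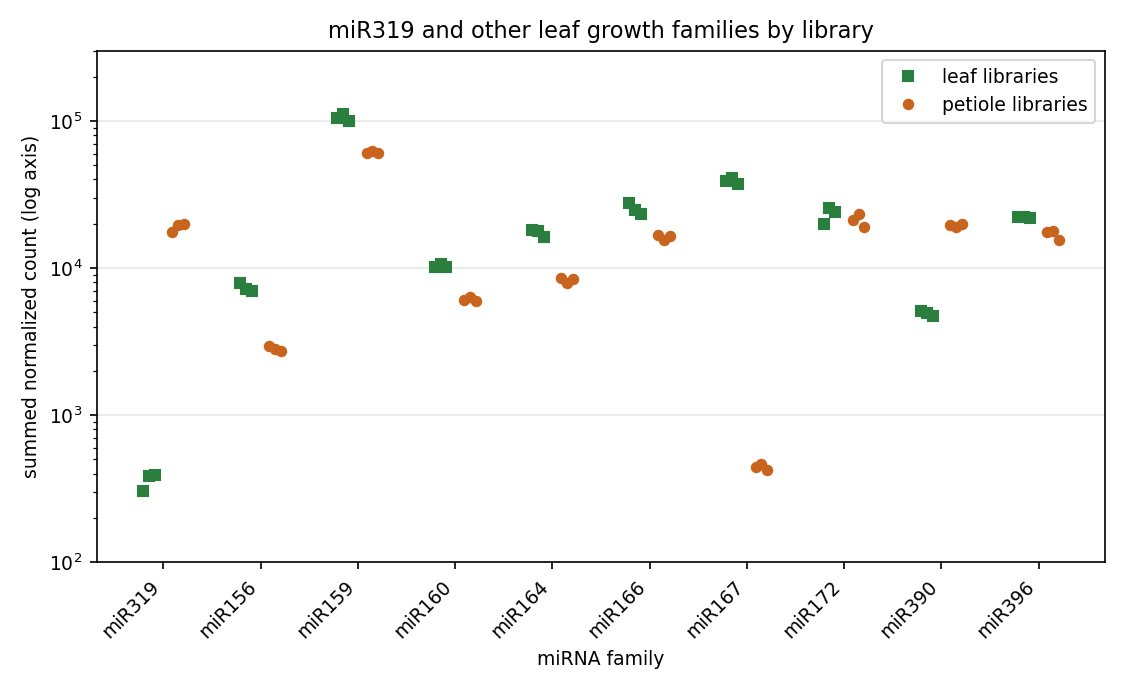
Points give the summed normalized count of each family in each library on a log axis, with squares for leaf and circles for petiole. miR319 sits at 304 to 392 in leaf and at 17554 to 19788 in petiole, and miR167 shows the opposite order, while the tissues lie closer together in the other 8 families.

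Sequences outside the family whose pattern over the 6 libraries was most like that of the miR319 sum were found among the 180 with a mean of at least 50. Likeness was the root mean square difference between profiles of log2(count + 1), each centred on its own mean. The nearest was the predicted sequence PC-5p-20820_189 at 0.645, with 5.71, 3.13 and 3.18 counts in leaf and 106, 144 and 118 in petiole. Next came PC-5p-9832_350 at 1.04, listed at 0 in leaf and at 218, 210 and 228 in petiole. The known miRNA strand bra-miR390-3p followed at 1.34, with 514 ± 25.8 in leaf and 4308 ± 207 in petiole (SD, n = 3). The last 2 of the 5 nearest were ath-MIR8175-p5_2ss14TC18AC at 1.604 and ath-MIR169e-p3 at 1.66, with petiole means of 115 and 152 and leaf means of 19.0 and 27.9. As libraries of each tissue lie close together, this likeness reflects mainly the size of the difference between the tissues.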

How the data were processed

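Per the labels' protocols, total RNA was extracted with Trizol, TruSeq small RNA libraries were sequenced on an Illumina HiSeq, and ACGT101-miR removed adapter dimers, junk, low-complexity reads, repeats and common structural RNAs. No aligner, build or miRBase release is named in the sources used here. The deposited table gives signal values, normalized counts per the file headers, whose scaling factor is not stated. Of 1069 entries, 58 repeated a sequence with the same values and were merged.

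The low values lay on a step taken as 1 read (0.904 to 1.06). Below 60 reads, values came out whole within 0.02 reads in 71.5% to 76.9% of cases, and as multiples of 0.5 reads in 98.4% to 99.7%, and the count test was not run.

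After adding 1, log2 values were compared by limma (version 3.58.1, under R 4.3.3) with its trend option, on sequences or family sums with a mean of at least 5, Benjamini-Hochberg adjusted. The script was tested on simulated data. The labels do not tell whether replicates are separate plants, and p-values therefore cover the spread between libraries, which may be technical. Members and lists were chosen with earlier results of these data known. The text names every miR319 form, the most abundant form of each listed family, the 3 most abundant miR159 forms and the 5 sequences nearest in pattern, and aqc-miR159, singled out for its sequence.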

Additional observations from a re-analysis of the deposited data

How the results depend on the processing

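The log2 difference of the miR319 sum, 5.72 on the deposited scale, was 6.58 with equal totals, 6.30 with equal totals set without the 6 most abundant sequences and 6.23 after quantile normalization. Without any one library it was 5.60 to 5.79, and in the other alternatives it moved by less than 1 SD. Of 150 alternatives for single forms, 39 moved a difference by more than 1 SD and none turned a form lower. In every form all petiole values lay above all leaf values. Leaving out a library or adding another value than 1 could thus turn no form lower, and nothing is read from those alternatives. The sequence shared with a miR159 name was left out, or moved to miR159, as alternatives chosen after seeing the data.

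With a mean of at least 50, 156 sequences were called instead of 298, and other settings gave 245 to 428. With equal totals the higher calls were 321 of 428 against 128 of 298. The libraries numbered alike did not deviate together (correlations of 0.07, 0.01 and 0.01), and with the replicate number as a block 280 sequences and 8 of 9 listed families were called.

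With equal totals, the sums of miR159, miR160, miR166, miR172 and miR396 turned to 0.072, 0.10, 0.21, 0.73 and 0.47, and bra-miR159a, ath-miR159b-3p_R+1_1ss21TA, bra-miR160a-5p, bra-miR172a and ath-miR396a-5p to 0.083, 0.29, 0.079, 0.33 and 0.73. After quantile normalization, miR159, miR160, miR172 and miR396 turned to 0.094, 0.018, 0.50 and 0.26, and bra-miR159a, ath-miR159b-3p_R+1_1ss21TA, bra-miR160a-5p, bra-miR164a, bra-miR172a and ath-miR396a-5p to 0.12, 0.12, 0.014, 0.0061, 0.15 and 0.60. Without leaf replicate 3, bra-miR172a no longer passed (-0.50). Depth limits the minor forms in leaf, where the whole family rests on 293 to 371.5 reads.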
